A study of Mus musculus with 27 samples.

Results

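Capture Hi-C libraries of mouse testis also hold contacts far from the regions they were enriched for. Those described here joined a pair of bins of 10 kb on the same autosome, for chromosomes 1, 3 and 5 to 19, and chromosomes 2 and 4, which carry the captured regions, were left out. This choice used only the position of the contacts. It took 8832364 of the 41045625 contacts of the 6 libraries, or 21.5%.

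The study deleted a boundary between topologically associating domains, stretches of chromosome that contact themselves more than their neighbours, with CRISPR-Cas9. The 6 libraries came from testis, 3 of wild type and 3 labelled B396.BOS_hom_KO, homozygous for the deletion, with strain and age not given in the sources used here. The deletion lies on chromosome 4, so the 17 autosomes described here carried no edit by design and served as a library-wide control. Bulk testis mixes germ cells of all stages with somatic cells, so a different share of cells of a type and a different folding within a type cannot be told apart. Nothing in the contact counts allowed the tissue to be checked against marker genes.

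In a Hi-C experiment the frequency of contact falls with the distance between a pair of sites along the chromosome, and the steepness of that fall reflects how the chromosome is folded. On top of it, active, gene-rich stretches contact one another over long distances, as do silent, gene-poor stretches, which gives maps a chequered pattern known as compartments. The testis is known for cells in meiotic prophase, whose chromosomes are arranged as arrays of loops along an axis and whose ends gather at the nuclear envelope, and for spermatocytes in which the X chromosome is silenced in a separate body.

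The chequered pattern was read from the first eigenvector of each chromosome's contact map in bins of 1 Mb, positive where gene-rich bins lie. The promoters below belong to genes in bins at the extremes of the eigenvector on chromosomes 11 and 5, 2 of the chromosomes on which the pattern was strongest. They are shown as examples of sequence within such bins. Ctc1 lies in the highest bin of chromosome 11 and Slc5a6 in the highest bin of chromosome 5. Gabrg1 lies in the lowest bin of chromosome 5 holding a gene with a promoter in the table. Each is a window of 300 bases around the annotated start (RefSeq, GRCm38.p6), most of it before the start, 5′ to 3′ on the gene's strand, with every CG dinucleotide in capitals.
Ctc1, chr11:69015661-69015960, plus strand: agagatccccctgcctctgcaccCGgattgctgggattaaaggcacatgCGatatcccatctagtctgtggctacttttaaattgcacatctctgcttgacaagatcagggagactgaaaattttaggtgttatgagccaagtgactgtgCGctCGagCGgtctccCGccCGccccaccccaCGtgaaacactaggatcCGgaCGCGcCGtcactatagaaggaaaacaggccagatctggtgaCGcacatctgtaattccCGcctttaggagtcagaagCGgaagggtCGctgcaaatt
Slc5a6, chr5:31048513-31048812, minus strand: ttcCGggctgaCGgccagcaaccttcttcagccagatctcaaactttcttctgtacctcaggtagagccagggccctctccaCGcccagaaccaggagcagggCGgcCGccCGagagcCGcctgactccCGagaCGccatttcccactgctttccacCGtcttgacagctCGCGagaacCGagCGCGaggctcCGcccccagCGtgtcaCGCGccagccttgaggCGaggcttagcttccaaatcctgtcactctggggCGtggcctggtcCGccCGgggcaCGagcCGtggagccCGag
Gabrg1, chr5:70842568-70842867, minus strand: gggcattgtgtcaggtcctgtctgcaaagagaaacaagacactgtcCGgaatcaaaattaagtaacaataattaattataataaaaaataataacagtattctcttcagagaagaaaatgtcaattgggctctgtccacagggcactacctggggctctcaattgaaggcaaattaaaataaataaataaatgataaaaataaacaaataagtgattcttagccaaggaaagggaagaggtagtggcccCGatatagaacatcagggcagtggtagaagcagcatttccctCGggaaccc
Ctc1, a component of a complex that maintains telomeres, had 16 CG dinucleotides in this window, and 33.5% of the 27025 promoters in the table had as many. Slc5a6, a vitamin transporter, had 26, a count reached by 16.8% of promoters. Gabrg1, a subunit of the receptor for the transmitter GABA, had 3, and 31.9% of promoters had as few. The median promoter had 7, and 94.2% held at least 1. CG reads the same on both strands and was searched as those letters, without overlap with another motif. The 3 promoters were chosen by their bins and are examples, not a test.

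The wild-type libraries, in the order of replicates 1 to 3 as throughout, had off-target shares of 22.4%, 20.3% and 22.3%. The homozygous libraries had 21.8%, 20.7% and 21.8%. The ranges overlapped, and the difference of -0.231 percentage points was smaller than the SD within either genotype (two-sided exact permutation test, p 0.6). In counts, this was 1235969 to 1632579 contacts a library. Contacts within a bin made up 12.3%, 12.5% and 12.1% of them in wild type, against 10.2%, 10.6% and 11.8%. All 3 homozygous libraries lay below all 3 wild-type libraries, by 1.44 percentage points on average (p 0.1, the smallest that 3 against 3 libraries allow). The contacts of neighbouring bins were likewise 9.99%, 10.2% and 10.3% in wild type against 9.03%, 9.56% and 9.76% in homozygotes, again without overlap (exact permutation p 0.1). In all, 15 measures per library were compared between genotypes with this test. Of these, 7 showed no overlap, and their p adjusted over the 15 was 0.214.

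Between 20 kb and 100 Mb, 6900268 contacts were left after bins with few contacts were removed. Their density, the number of contacts per possible pair of bins, fell from 1643480 per 1000000 pairs at 20 kb to 433 at 84.34 to 100 Mb. The fall had 3 stages, and all 6 libraries showed them. The local exponent, the slope of log10 density on log10 distance, was -1.15 between the first classes at about 24.5 kb. It became shallower up to -0.711 at about 851 kb, steepened to -1.69 at about 11.3 Mb, and came back to -0.526 beyond 72.8 Mb. Between pairs of sites 1 and 5 Mb apart the curve thus formed a shoulder, after which contacts dropped away. The class from 2.67 to 3.55 Mb held more contacts than any other, 390667.

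**Figure D1:**
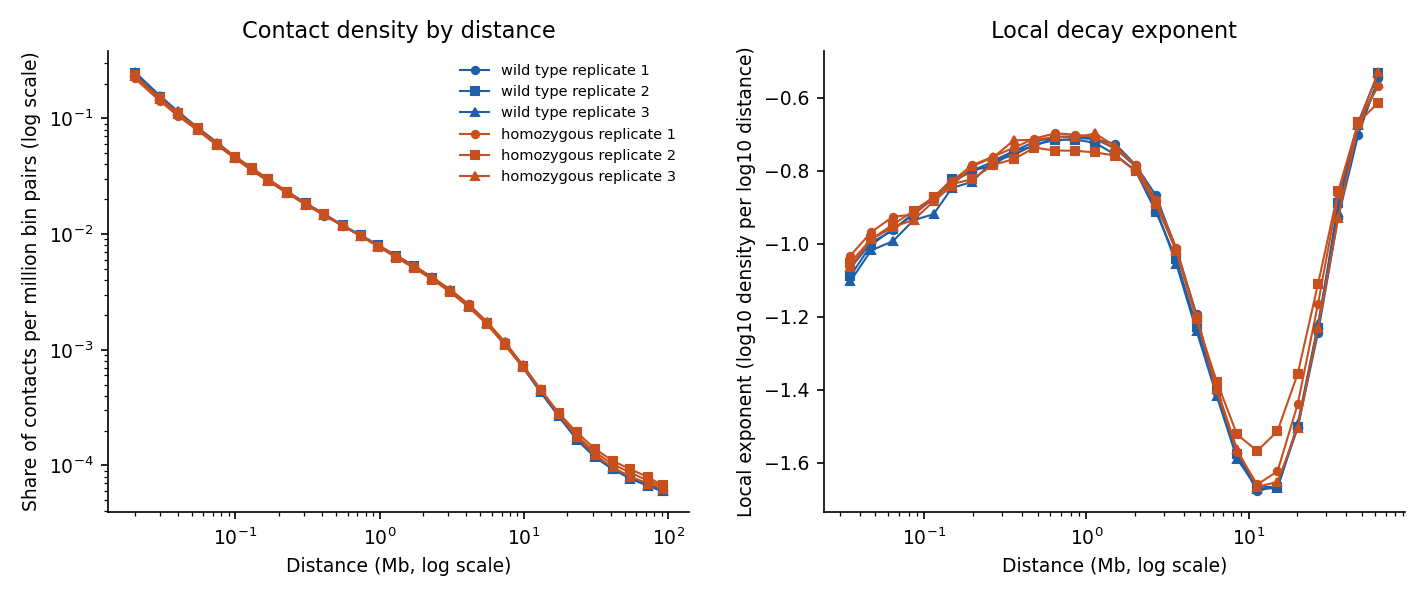
Left, contact density (log scale) against distance (Mb, log scale) in each of the 6 libraries. Right, the local decay exponent against distance, taken over 4 neighbouring classes. The 6 curves lie almost on one another on the left, and on the right all turn from a plateau near -0.7 to a trough between 10 and 20 Mb, where homozygous replicate 2 is the shallowest.

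Over the whole span the wild-type exponents were -0.985, -0.990 and -0.995, and the homozygous ones -0.971, -0.973 and -0.980. Every homozygous library decayed less steeply than every wild-type library, although the mean difference was only 0.0154 (exact permutation p 0.1). It was larger than the SD of either genotype, 0.0050 and 0.0046. With classes weighted by their contacts it was 0.0082 and the groups overlapped (exact permutation p 0.2). The exponent from 2 to 20 Mb took wild-type values of -1.37, -1.38 and -1.39 and homozygous values of -1.36, -1.33 and -1.36, again without overlap (exact permutation p 0.1). The difference of 0.0253 became 0.0155 without homozygous replicate 2. From 200 kb to 2 Mb both genotypes had a mean of -0.724, with a difference of 0.0002 (exact permutation p 1.0). From 20 to 200 kb the means were -0.986 ± 0.0154 and -0.963 ± 0.0101 (SD, n = 3 each, exact permutation p 0.2). From 20 to 100 Mb they were -0.737 ± 0.0126 and -0.731 ± 0.0083 (SD, n = 3 each, exact permutation p 0.6). When the density of contacts between different chromosomes was subtracted, an alternative added after the values were seen, the latter became -0.868 and -0.852, without overlap (exact permutation p 0.1).

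Held against wild type, homozygous libraries had fewer contacts at the shortest distances and more at the longest. The mean log2 difference in density was -0.09 at 20 kb, where the genotypes overlapped, and lay between -0.02 and 0.02 in each class from 0.15 to 11.24 Mb. Beyond it the difference was 0.05 at 11.25 to 14.99 Mb, 0.11 at 20 to 26.67 Mb and 0.14 at 35.57 to 84.33 Mb. In the 8 classes from 11.25 Mb onwards each homozygous library lay above each wild-type library. These were the only classes of the 30 without overlap, 26.7%. The tail was not even across the pairs. At 35.57 to 47.42 Mb it was 0.13, 0.24 and 0.05 for replicates 1, 2 and 3. Accordingly, contacts spanning over 20 Mb took 8.02%, 7.90% and 7.796% of the wild-type contacts, against 8.60%, 9.17% and 8.16% of the homozygous ones (exact permutation p 0.1). The difference of 0.741 percentage points became 0.477 without homozygous replicate 2. Those spanning over 2 Mb took 44.0%, 43.1% and 43.0% against 44.7%, 43.9% and 44.3%, and here the ranges overlapped (exact permutation p 0.2).

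**Figure D2:**
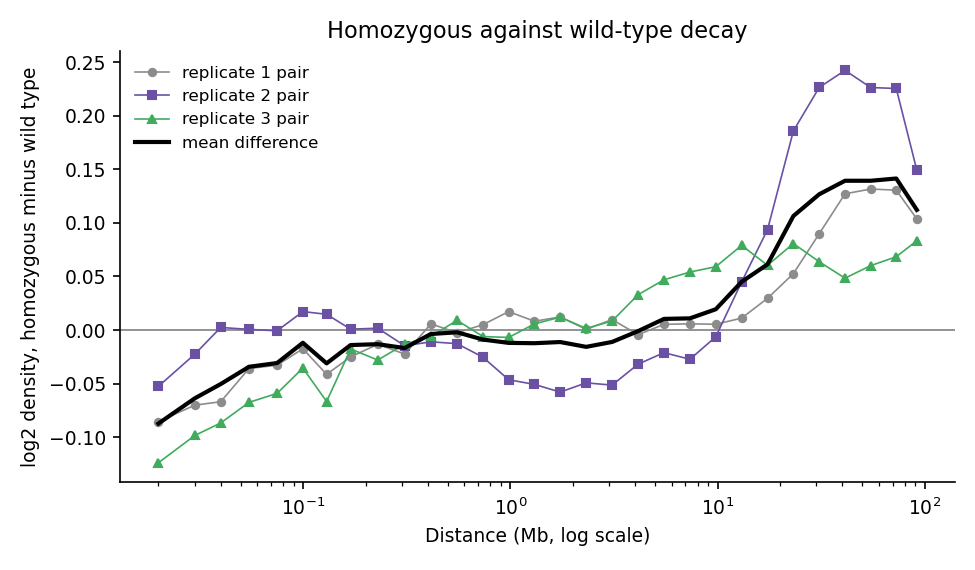
Difference in log2 contact density, homozygous minus wild type, against distance (Mb, log scale), for each pair of same-numbered libraries (coloured lines) and for their mean (black). All 3 lines lie above 0 from 11.25 Mb on, and the pair of replicates 2 reaches 0.24.

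Contacts between different chromosomes were counted beside the tail. Within-chromosome density in the last class was 4.17 to 4.55 times the density between the 17 autosomes. The latter, divided by the same total of each library, differed between genotypes by 0.02 on the log2 scale, within the SD of 0.04 in wild type and 0.05 in homozygotes (exact permutation p 0.6). After its subtraction the log2 difference at 35.57 to 47.42 Mb was 0.16, against 0.14 before. The ratio of contacts within to those between chromosomes took wild-type values of 4.83, 4.60 and 4.72 and homozygous values of 4.44, 4.37 and 4.74 (exact permutation p 0.3). The part of these values in the tail was not tested.

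Split by chromosome and distance, 0 of 507 classes (percentage called 0) passed edgeR's quasi-likelihood test with Benjamini-Hochberg adjustment, with 65 at an unadjusted p under 0.05. DESeq2 also called 0. Same-numbered libraries deviated together in these counts, with correlations of 0.449, 0.493 and 0.199, although wild-type replicate 3 was closer to homozygous replicate 1 (0.239). With the replicate number as a block, a pairing read from these same counts, 33 classes passed (6.51%). Of those, 23 were higher in homozygotes and all spanned 10 Mb or more, with 20 of them from 20 Mb on 12 chromosomes (log2 0.12 to 0.39). The 10 that were lower all lay within 200 kb, on 9 chromosomes (log2 -0.13 to -0.08). The fit without the block also depended on single libraries. Its count of 0 became 42, all higher in homozygotes, without homozygous replicate 3, 4 without homozygous replicate 2, and 1 without wild-type replicate 2.

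The 17 autosomes differed in steepness. From 20 kb to 50 Mb, the span that every chromosome covers, the pooled exponent was steepest on chromosomes 11 (-0.993), 5 (-0.990) and 9 (-0.981). It was shallowest on chromosomes 18 (-0.932, range -0.943 to -0.925), 3 (-0.945) and 16 (-0.947). Neighbours in this order overlapped over the libraries, whereas chromosomes 11 and 18 did not. Chromosomes dense in protein-coding genes kept fewer of their contacts at long range. Contacts spanning 2 to 50 Mb took 38.2% on chromosome 11, with 13.2 genes per Mb, and 45.0% on chromosome 3, with 6.15 genes per Mb. Across the 17 chromosomes this share had a Pearson correlation of -0.82 and a Spearman correlation of -0.86 with genes per Mb. Total contacts per Mb had correlations of 0.80 and 0.87 with it. The exponent went with gene density in opposite directions at short and long distance, with Pearson correlations of 0.53 from 20 to 200 kb, -0.64 from 200 kb to 2 Mb and -0.58 from 2 to 20 Mb. These chromosomes share the 6 libraries and differ in depth, so the values are descriptions. The homozygous exponent was shallower on 17 of 17 chromosomes, by 0.0106 to 0.0187, and without overlap on 13 (76.5%). Being from the same libraries, these chromosomes are not independent replicates.

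**Figure D3:**
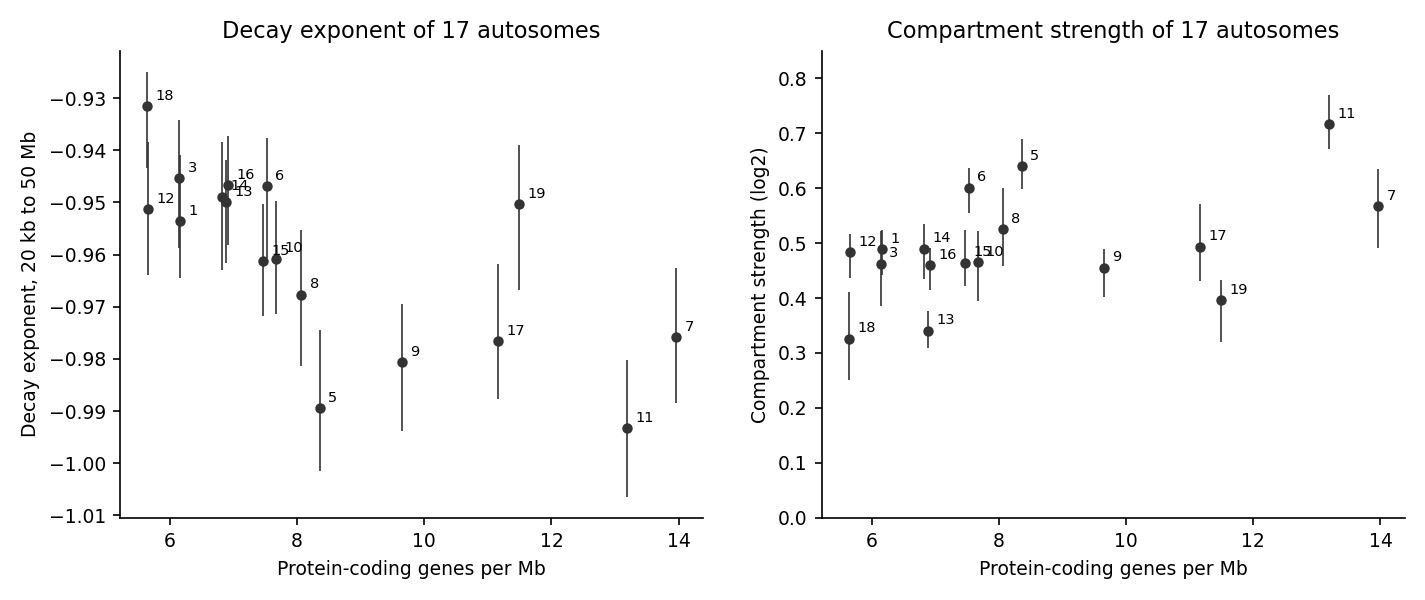
Decay exponent from 20 kb to 50 Mb (left) and compartment strength on a log2 scale (right) against protein-coding genes per Mb for each of the 17 autosomes. Points are pooled exponents or mean strengths, bars span the lowest and highest of the 6 libraries and numbers name the chromosome. Chromosome 11 is the steepest (-0.993) and has the highest strength (0.72), and chromosome 18 is the shallowest (-0.932) with the lowest strength (0.33).

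A chequered pattern was present on the pooled maps of all 17 autosomes. Of 2065 bins of 1 Mb, 1003 were positive, 48.6%, and these held 12.8 protein-coding genes per Mb against 4.21 in negative bins. The sign was set by gene counts, so that this contrast only says how strongly they go together. The correlation with genes per bin was 0.376 to 0.731 per chromosome, and stretches of one sign were 2.81 to 7.74 Mb long on average. Positive bins also had more contacts, 5335 per bin against 3889. The correlation of the eigenvector with the total per bin was 0.578 to 0.870, and its part in the pattern was not tested beyond balancing the maps. Eigenvectors made separately from wild-type and homozygous libraries correlated at 0.915 to 0.979 per chromosome. The sign differed in 139 bins, 6.73%, and these sat close to 0, with a median absolute value of 0.104 against 0.971 in all bins.

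On chromosome 11, where the pattern was strongest, the highest bin was chr11:69000001-70000000, which starts with Pfas, Ctc1, Aurkb and Borcs6. Aurkb is a kinase of chromosome segregation. Its preference for positive over negative bins, a mean difference in log2 observed over expected contact, was 0.88 ± 0.09 in wild type and 0.85 ± 0.04 in homozygotes (SD, n = 3 each). The next were chr11:78000001-79000000 with Phf12 and Flot2, and chr11:116000001-117000000 with Itgb4, Galk1 and H3f3b. Among the lowest were chr11:91000001-92000000 with Kif2b, where the preference was -0.71 ± 0.18 in wild type and -0.76 ± 0.13 in homozygotes (SD, n = 3 each), and chr11:27000001-28000000, which has no protein-coding gene. Chromosome 5 gave a like picture. Its 3 highest bins were chr5:31000001-32000000 with Slc5a6 and Cad, the latter an enzyme of pyrimidine synthesis, chr5:24000001-25000000 with Kcnh2, a potassium channel, and chr5:30000001-31000000 with Il6 and Tyms. Its lowest bins were chr5:40000001-41000000 and chr5:56000001-57000000, both without a protein-coding gene, and chr5:70000001-71000000 with the receptor genes Gabrg1 and Gabra2. On chromosome 6 the highest were chr6:120000001-121000000 with Wnk1, chr6:88000001-89000000 with Rab7, Rpn1 and Gata2, and chr6:87000001-88000000 with Aak1. The lowest were chr6:20000001-21000000, chr6:133000001-134000000 with the bitter taste receptors Tas2r103 and Tas2r140, and chr6:79000001-80000000. In each of these bins the preference had 1 sign in all 6 libraries. Both the bins and the signs used for the preference came from the eigenvector of all 6 libraries pooled. The agreement was thus favoured by the choice, and 73.8% of all 2065 bins had it.

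The lists of genes below are described by counts, and their difference from other genes was not tested. Of all 17296 protein-coding genes placed on the eigenvector, 74.1% were in positive bins, with a median of 0.95. Of 17 housekeeping genes on these chromosomes, 16 were in positive bins (median 1.32), the exception being Sdha. All 17 genes of meiotic spermatocytes were positive (median 1.10). Among them, Dmc1, the recombinase of meiosis, lay in a bin with a preference of 0.73 ± 0.22 in wild type and 0.55 ± 0.26 in homozygotes (SD, n = 3 each). For Rec8, a meiotic cohesin subunit, these were 0.53 ± 0.15 and 0.42 ± 0.03. Sycp3, a protein of the chromosome axis, was the least positive of the 17, with an eigenvector of 0.46. Of 7 spermatogonial genes, 6 were positive but with a low median of 0.26. Nanos3 and Stra8 lay far above this median, at 1.60 and 1.31, in bins with a positive preference in 6 of 6 libraries. Kit, a receptor of differentiating germ cells, and Gfra1, a receptor of stem cells, were at 0.19 and 0.17. The preference of their bins was positive in 4 of 6 libraries each. Dmrt1 was negative at -0.74. Of 16 spermatid genes, which lay in 13 bins, 13 were positive (median 1.22). Prm1, Prm2 and Tnp2, which encode proteins that replace histones, share 1 bin at 1.22 with Prm3, and the median counts this bin once for each of them. Acrv1, an acrosomal protein, was at -1.16 and Zpbp at -0.71. Somatic testis genes were positive in 10 of 13, with Sox9, a Sertoli cell factor, at -0.89.

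Gene families that sit in clusters were counted in the same way. Olfactory receptors were positive in 187 of 792 (23.6%, median -0.92) and vomeronasal receptors in 53 of 270 (19.6%, median -0.66). Defensins, antimicrobial peptides, were positive in 5 of 60. All 30 Hox genes and all 53 keratins were positive, and so were 59 of 64 histone cluster genes. These counts rest on few places, 4 bins each for Hox genes and keratins, 7 for defensins and 10 for histones. Zinc finger genes named Zfp, spread over 156 bins, were positive in 77.5%, close to the 74.1% of all genes.

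Compartment strength, the log2 ratio of contacts between bins of like sign to those of unlike sign, was scored in each library with signs from the other 5. The wild-type strengths were 0.49, 0.51 and 0.48, and the homozygous ones 0.53, 0.52 and 0.53. The groups did not overlap, and the homozygous mean was higher by 0.03 (exact permutation p 0.1), which exceeded the SDs of 0.02 and 0.01. Without balancing the maps the difference turned to -0.01 (0.61 ± 0.07 in wild type and 0.60 ± 0.05 in homozygotes, SD, n = 3 each, exact permutation p 0.8), so that its direction rests on the balancing. It was 0.02 both with bins of 2 Mb and with signs taken from genes per bin, and in the latter case the groups overlapped (exact permutation p 0.2). Strength was higher at longer distance, from 0.17 ± 0.01 for bins 2 to 5 Mb apart to 0.61 ± 0.03 at 40 to 80 Mb (SD, n = 6), in each library. Chromosomes 11 (0.72), 5 (0.64) and 6 (0.60) were strongest, and chromosomes 18 (0.33), 13 (0.34) and 19 (0.40) weakest. The homozygous mean was higher on 15 of 17 chromosomes, without overlap on 4 (23.5%).

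**Figure D4:**
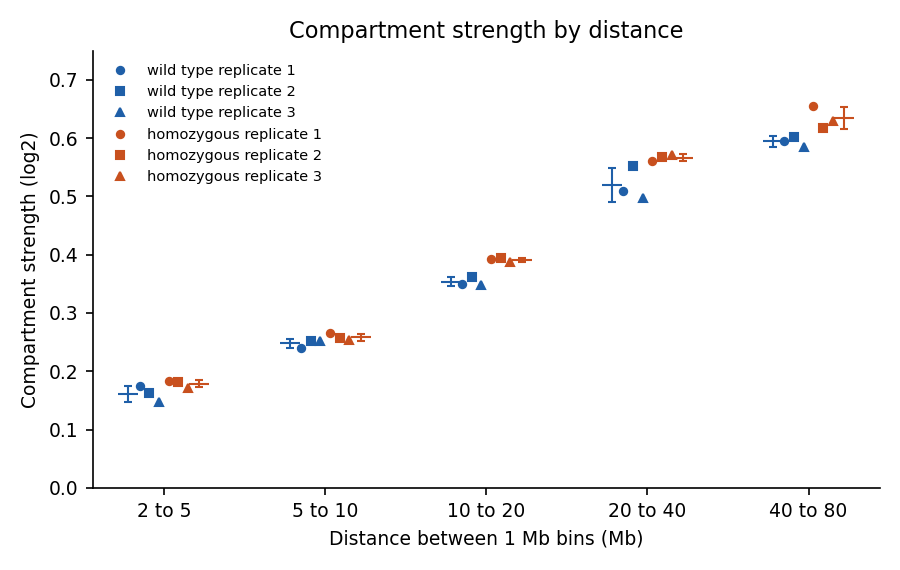
Compartment strength (log2) of each library for pairs of 1 Mb bins in 5 ranges of distance (Mb), with group means and SD bars beside the points. Strength climbs with distance in all 6 libraries, and from 10 to 20 Mb the homozygous libraries (0.39 on average) lie above the wild-type libraries (0.35).

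No single bin passed the test of its preference between the genotypes. With limma 0 of 2065 bins passed at an adjusted p of 0.05 (percentage called 0), with 155 at an unadjusted p under 0.05. The group means correlated at 0.956 across bins, which are not independent, and 73.8% of bins had the same sign in all 6 libraries. The preference uses signs of the eigenvector of all 6 libraries pooled, so neither value is held out. Leaving out homozygous replicate 1 gave 2 bins, and leaving out homozygous replicate 2 gave 1.

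One interval on chromosome 7 stood out in the test of pairs of bins. Among 16019 pairs of 1 Mb bins, 1 passed edgeR's test (0.00624%): chr7:60000001-61000000 with its neighbour chr7:61000001-62000000. The wild-type libraries held 23, 16 and 32 contacts of this pair and the homozygous libraries 54, 61 and 69, so the groups were well apart. The log2 difference was 1.33 (SE 0.20, adjusted p 0.0001295). It passed under all 11 other settings tried, DESeq2 and each omission of a library included. With the replicate block, 8 pairs passed (0.0499%), 6 of them on chromosome 7 in bins starting from 55 to 64 Mb. Same-numbered libraries hardly deviated together in these counts (correlations 0.066, 0.143 and 0.012), so the pairing behind this block was not met here. The interval includes Snrpn and Snurf, and farther on Ndn, Magel2, Mkrn3 and Peg12, a cluster known for expression from the paternal copy alone.

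Contacts of any span were also lower there in wild type. The ends of contacts in chr7:60000001-61000000, per 1000000 off-target contacts, numbered 186, 166 and 344 for wild type, against 523, 428 and 497. Wild-type replicate 3 lay between its group and the homozygotes. The log2 difference of the means was 1.06. In the following bins, chr7:61000001-62000000 and chr7:62000001-63000000, it was 0.55 and 0.56, and at chr7:63000001-64000000, which holds Chrna7 and Klf13, it was 0.38. All libraries dipped at this place. A test of contact ends over all 2079 bins was added after these values had been seen. In edgeR without a block 0 passed (percentage called 0), with 0.962% of bins at an unadjusted p under 0.05, and DESeq2 called 6. Same-numbered libraries deviated together here too (correlations 0.697, 0.830 and 0.217), although wild-type replicate 3 was again closer to homozygous replicate 1 (0.612). With the replicate block, a pairing read from these same counts, 13 passed (0.625%). Of these, 12 lay on chromosome 7 between 41 and 66 Mb and all were higher in homozygotes, with log2 0.19 to 1.04 in the fit without the block. Without wild-type replicate 3 the unblocked fit called 5, and without wild-type replicate 2 or homozygous replicate 2 it called 3. Groups did not overlap and homozygotes were higher in 16 of 143 bins of chromosome 7, against 1.64% of bins over all 17 chromosomes. Each contact counts at both its ends, so bins are not independent. The cause of the difference was not tested.

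**Figure D5:**
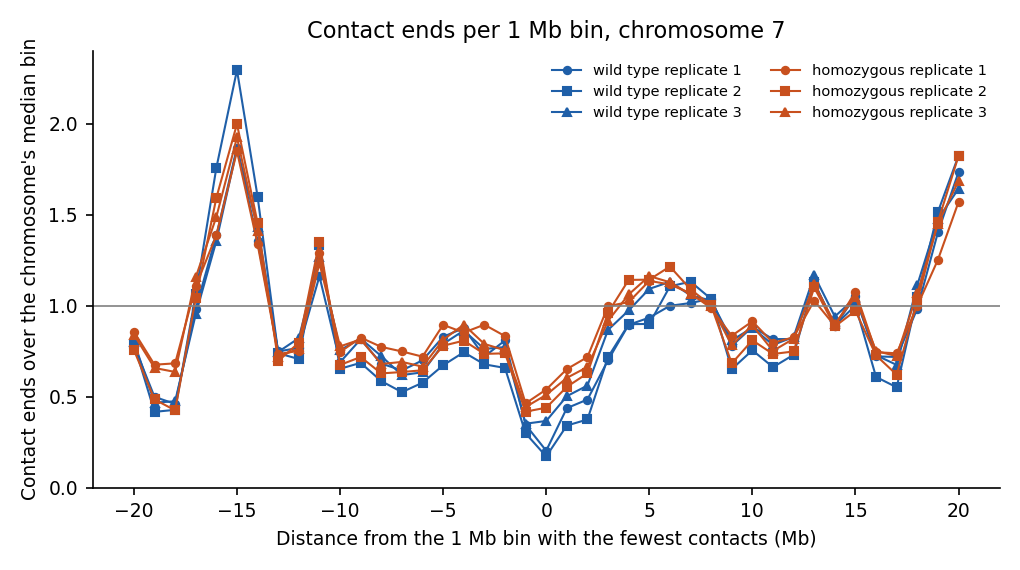
Contact ends per 1 Mb bin of chromosome 7, over the median bin of the chromosome in the same library, against the distance (Mb) from the bin with the fewest contacts in this stretch. Each line is a library. At 0 the wild-type libraries lie at 0.204, 0.173 and 0.367, below the homozygous libraries at 0.540, 0.440 and 0.510. At 8 Mb on the right the homozygous libraries lie slightly below the wild-type ones, and from 9 Mb to 12 Mb the groups overlap.

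The highest long-range signal on the pooled maps was on chromosome 1 and was present in all 6 libraries. Among 85968 pairs of 1 Mb bins at least 5 Mb apart with an expected count of 5 or more, the median of observed over expected was 0.949 and the 99th percentile 2.38. The pair chr1:3000001-4000000 with chr1:88000001-89000000 reached 45.2, the wild-type libraries giving 45, 51 and 41 contacts and the homozygous libraries 45, 41 and 57. The next 4 pairs joined the same bin at 88 Mb to the bins from 4 to 8 Mb, with ratios of 32.0, 22.2, 18.96 and 15.1. In bins of 10 kb, picked after the values were seen, nearly all of it came from chr1:88210001-88320000. This segment of 110 kb covers part of the Ugt1a cluster, genes of enzymes that attach glucuronic acid to drugs and bilirubin. It held 1056 contacts with the first 12 Mb of the chromosome, beginning at chr1:3000001, and 932 with the 5 Mb on both sides of itself. Contacts with the chromosome's start fell from 278 in the first 1 Mb to 38 in the bin from 11 to 12 Mb. Its bins had a mean total of 712 contact ends, 9.76 times the chromosome's median bin. The ratio of contacts with the start to those with the flanks was 1.16 ± 0.22 in wild type and 1.16 ± 0.18 in homozygotes (SD, n = 3 each, exact permutation p 1.0). The origin of these counts was not tested.

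Contacts between chromosome ends depended on how coverage was handled. The first and last 5 Mb of 16 chromosomes shared 275 to 410 contacts a library, chromosome 1 having no inner pair at that distance. On balanced maps the log2 of observed over expected took wild-type values of 0.73, 1.04 and 0.78 and homozygous values of 0.80, 0.99 and 0.98, with ranges that overlapped (exact permutation p 0.6). The mean over the 6 libraries was 0.89 ± 0.13 (SD), 0.55 ± 0.14 without balancing and 0.21 ± 0.17 with coverage taken from contacts inside each bin, an alternative added after the values were seen. On maps simulated without any enrichment of such contacts, balancing raised this measure, so the balanced level cannot be read as an enrichment by itself. Which of these levels is right was not tested. The difference between genotypes was 0.07 on balanced maps, 0.02 for windows of 10 Mb and 0.10 for windows of 3 Mb. It ran from 0.01 without wild-type replicate 1 to 0.17 without wild-type replicate 2.

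Beside the 17 autosomes, the same libraries hold the X chromosome, single in male cells, and the parts of chromosomes 2 and 4 outside the captured regions. The X decayed more steeply from 2 to 20 Mb, with an exponent of -1.49 ± 0.03 against -1.37 ± 0.02 (SD, n = 6), lower in 6 of 6 libraries (two-sided exact sign-flip test, p 0.03125, the smallest possible, adjusted 0.0398 over 14 comparisons). From 200 kb to 2 Mb it was shallower, by 0.0240 ± 0.0076 (SD, n = 6), in 6 of 6 libraries (exact p 0.03125, adjusted 0.0398). Both comparisons were with the 17 autosomes together, and single autosomes came close. From 2 to 20 Mb the pooled exponent was -1.488 on the X, -1.465 on chromosome 11 and -1.4615 on chromosome 5, with overlapping ranges over the libraries. From 200 kb to 2 Mb the X had -0.701 and chromosome 13 had -0.702. The compartment strength of the X was 0.19 ± 0.04 against 0.51 ± 0.02 on the autosomes (SD, n = 6, exact sign-flip p 0.03125, adjusted 0.0398). The X had 1581 contacts per Mb, and the autosomes 3809 to 5512. Thinned to the depth of the X, the 12 autosomes longer than 120 Mb still had a strength of 0.51 ± 0.03 (SD, n = 6), and 12 of 12 lay above the X. The first eigenvector of the X was itself less stable. Its wild-type and homozygous versions correlated at 0.626, against 0.915 to 0.979 on the autosomes, and differed in sign in 42 of 153 bins. Its versions from balanced and unbalanced maps correlated at 0.180. The part of this in the low strength was not tested. With signs from genes per bin, which do not use the eigenvector, the strengths were 0.17 on the X and 0.33 on the autosomes (exact sign-flip p 0.03125). The exponent from 20 kb to 100 Mb differed from that of the autosomes by -0.0078 ± 0.0029 on chromosomes 2 and 4 and by 0.0108 ± 0.0047 on the X (SD, n = 6, exact sign-flip p 0.03125, adjusted 0.0398 for each). The share of contacts over 2 Mb was lower on both, with differences of -0.448 percentage points on chromosomes 2 and 4 and -0.418 on the X (exact sign-flip p 0.03125, adjusted 0.0398 for each). The strength of chromosomes 2 and 4 was 0.63 ± 0.02, higher than the mean of the 17 autosomes in 6 of 6 libraries (exact p 0.03125, adjusted 0.0398) and within the range from chromosome 18 to chromosome 11.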

How the data were processed

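For each of 6 libraries the authors deposited whole-number contact counts for pairs of 10 kb bins, without normalization. The Arima Hi-C kit and hybrid capture were used, per the labels' protocols, and the build is mm10, per the submitters' processing notes. The aligner and filters are not given in the sources used here. RNA-seq and ChIP-seq data were not analysed here. Replicates are labelled by number only, so p-values may measure technical spread.

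Bins under 10% of their chromosome's median total were left out. Decay used 8 classes per decade, and exponents are least-squares slopes. Maps of 1 Mb were balanced iteratively. Genotypes were compared with exact permutation tests over 20 arrangements, with edgeR 4.0.16 (TMM, mean count of at least 10) and DESeq2 1.42.0 on counts, and with limma 3.58.1 on scores, with a threshold of 0.05 after Benjamini-Hochberg adjustment. Fits were tested on simulated data. Same-numbered libraries were taken as pairs where all 3 correlations of their deviations exceeded 0.1, which held for distance classes and bin totals but not for pairs of bins (0.066, 0.143 and 0.012). The labels state no pairing, and these correlations came from the same counts as the blocked fits. Calls under the block therefore rest on a pairing read from the data. Members, lists and named regions (extremes of chromosomes, bins and pairs by fixed ranks) were chosen with earlier results of these data known. Libraries held 5669898 to 7794641 contacts. The result for 1 bin among these extremes is not reported here.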

Additional observations from a re-analysis of the deposited data

How the results depend on the processing

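Across the results, 235 alternatives were run, of which 206 kept the direction and the side of the threshold or stayed within 1.5 times the count. The exact permutation test of 3 against 3 libraries cannot pass 0.05, so for the measures tested with it only the direction was followed. The genotype difference in the off-target share ran from -0.903 to 0.151 percentage points when 1 library was left out, turning to 0.1252, 0.0843 and 0.151 without wild-type replicate 1, wild-type replicate 3 and homozygous replicate 2. That in the exponent from 200 kb to 2 Mb was -0.0002 with stricter bin limits, -0.0005 with 16 classes per decade, -0.0002 with weighted classes and -0.0068 to 0.0128 with 1 library left out. That from 20 to 100 Mb was -0.0011 to 0.0112 with 1 library left out. Compartment strength turned to -0.0149 without balancing.

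Called distance classes were 4 without TMM, 33 with the replicate block and 0 to 42 with 1 library left out. Called pairs of 1 Mb bins were 2 at a mean count of at least 30, 8 with the replicate block and 1 to 5 with 1 library left out. Called bin totals were 6 with DESeq2, 13 with the replicate block and 0 to 5 with 1 library left out, and bin preference 0 to 2. The replicate block changed no call for bin preference. For the 15 measures per library it gives the same mean difference by design, so it could not turn their direction. Those entries are among the 206 alternatives counted as kept. Restricted to autosomes over 120 Mb, the X differed from 20 to 100 Mb by 0.147 (exact p 0.0625), and chromosomes 2 and 4 differed from 2 to 20 Mb by 0.0160 (exact p 0.03125). The cause was not tested. Depth limits distant pairs, since 11 pairs of 1 Mb bins 20 Mb or more apart reached a mean count of 10.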

Other observations

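Single bins of 10 kb with extreme totals were few. Of 205299 bins with contacts, 87.2% lay between 0.5 and 2 times the chromosome's median, and 280 exceeded 5 times it, with 1.40% of all contact ends. The highest, chr17:39840001-39850000, held 17952 contact ends, 230 times the median, and 90.1% of them came from contacts within the bin. It carries Rn18s-rs5 and AY036118, the first named for ribosomal RNA. The wild-type libraries had 2157, 5687 and 2788 and the homozygous libraries 1145, 4819 and 1356, so that replicate 2 was highest in both genotypes. The next were chr11:3190001-3200000 in Sfi1, a centrosome gene (7993, 69.2% within the bin), chr15:79670001-79680000 with Tomm22 and Josd1 (6600), chr16:33130001-33140000 (6216) and chr10:128670001-128680000 with Suox and Rab5b (5930). In the last, 16.1% of ends came from contacts within the bin.

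A bin on chromosome 15, chr15:75080001-75090000, picked after the values were seen, resembled the segment on chromosome 1 at a smaller scale. It held 249 contacts with the first 12 Mb of its chromosome and 73 with the 5 Mb on both sides of itself, with totals of 60 and 24 in the adjacent bins against 490 in it. The ratio was 4.02 ± 0.52 in wild type and 3.01 ± 0.98 in homozygotes (SD, n = 3 each, exact permutation p 0.3).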
